A study of Mus musculus with 4 samples.

Results

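The Igfbp2-positive smooth muscle cells of the CNC AngII library are 4168 of the 31676 cell barcodes in the 3 libraries used. They were chosen by measured counts: a barcode needed 500 or more detected genes and no more than 10% of its UMIs (unique molecular identifiers, each a captured transcript) from mitochondrial genes, and was taken as a smooth muscle cell with at least 5 Myh11 UMIs and 0 UMIs of Pdgfra, Ptprc and Pecam1. Members then had at least 2 Igfbp2 UMIs and fewer than 5 Spp1 UMIs. The levels of these 6 genes are therefore a description of the selection and no result. The same gate took 2576 cells from the SHF AngII library, and 333 from SHF baseline.

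In the mouse ascending aorta, the study set descendants of the second heart field (SHF) beside cells of other origins (CNC, an abbreviation left unexplained in the labels), at baseline and during infusion of angiotensin II (AngII). All mice were male and of the strain Mef2c-mTmG, whose reporter records descent by lineage. The AngII groups had received the peptide for 3 days, the baseline group had not, and live single cells were sorted on lineage before droplet 3' RNA sequencing. Since CNC cells at baseline were not analysed here, no AngII response of CNC cells could be computed, and every comparison of origin is within AngII. The labels give no age, number of pooled animals or dose, and the files hold no row for the reporter, so the sort was not checked from expression. Each group is 1 library: differences have no replicate check, no p-value is given, and intervals (95%) cover counting error only.

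Smooth muscle cells of the aortic media contract through smooth muscle actin and myosin and also lay down the elastic lamellae and collagen that carry the load of each heartbeat. Igfbp2 encodes a secreted protein that binds insulin-like growth factors and holds them away from their receptor, and it also binds integrins and the receptor phosphatase Ptprz1. In the ascending aorta, cells from the second heart field and from the cardiac neural crest lie in adjoining layers of the wall and both become contractile smooth muscle, and the second heart field also supplies muscle of the outflow tract and right ventricle.

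The cells carried the label's markers. Of the 4 markers Myh11, Igfbp2, Col18a1 and Npnt, the last pair was not part of the gate: Col18a1, a basement membrane collagen, had a UMI in 99.9% of members, and Npnt (nephronectin, an integrin ligand of the basement membrane) in 99.6%. Their levels did not mark the Igfbp2 class, however: Col18a1 stood at 1635 CPM (UMIs per 1000000 UMIs of the class) in members and 1561 CPM in the Igfbp2-negative cells of the same library, and Npnt at 900 and 879 CPM. The 7 smooth muscle markers summed to 60870 CPM in members and 67410 CPM in the SHF cells. Of the 7 endothelial markers, Kdr was the only one outside the gate at 0, and all 7 summed to 0.801 CPM in members. Msln, Upk3b and Wt1, of 4 mesothelial markers, were at 0, and the sum, all from Krt19, was 0.0157 CPM. The 4 pericyte markers, among them Rgs5 and Abcc9, summed to 72.6 CPM in members and 84.8 CPM in the SHF cells, with 0 of them at 0.

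Among the genes named by rank, Des and Tnnt2 had the lowest and Acan the highest ratio between origins, and their upstream sequence is shown for that reason, from RefSeq on GRCm38.p6 (mm10). Des encodes desmin, the muscle intermediate filament, Tnnt2 the cardiac troponin T, and Acan aggrecan, the large cartilage proteoglycan. Each run is the 250 bases before the annotated start, all on the plus strand. Those of Des are chr1:75360042-75360291, those of Tnnt2 (the first of 2 listed starts) are chr1:135836084-135836333 and those of Acan are chr7:79052976-79053225. Capitals mark GATA and the MCAT sequence CATTCC on either strand, so that GATA on the minus strand reads TATC.
Des: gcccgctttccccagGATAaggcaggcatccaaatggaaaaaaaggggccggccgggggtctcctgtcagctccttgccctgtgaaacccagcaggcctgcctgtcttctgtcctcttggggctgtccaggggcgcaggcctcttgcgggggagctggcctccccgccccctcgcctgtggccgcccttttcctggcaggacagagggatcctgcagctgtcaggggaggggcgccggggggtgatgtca
Tnnt2: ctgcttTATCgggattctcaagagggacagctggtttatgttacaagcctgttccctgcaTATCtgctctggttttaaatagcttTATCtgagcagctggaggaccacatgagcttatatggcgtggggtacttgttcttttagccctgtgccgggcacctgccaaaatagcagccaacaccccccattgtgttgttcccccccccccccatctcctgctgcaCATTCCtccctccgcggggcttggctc
Acan: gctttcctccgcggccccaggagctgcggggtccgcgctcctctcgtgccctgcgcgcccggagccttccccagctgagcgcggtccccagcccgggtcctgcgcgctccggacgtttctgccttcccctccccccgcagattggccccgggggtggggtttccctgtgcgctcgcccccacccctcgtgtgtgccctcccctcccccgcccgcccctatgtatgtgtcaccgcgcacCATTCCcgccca
The Tnnt2 run held 3 GATA matches and 1 MCAT match, which began 27 bases before the start. The Des run held 1 GATA match and the Acan run 1 MCAT match, which began 12 bases before the start. None of the 3 runs had a CArG box, the element bound by serum response factor. Over the 32851 promoters of the table, windows of the same length held GATA in 53.6%, MCAT in 12.6% and a CArG box in 1.47%. The matches are letters in these windows and were not tied to the expression values.

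Members were the larger Igfbp2 class of their library. Of the 5700 CNC AngII cells that passed the smooth muscle gate and the Spp1 limit, 4168 were Igfbp2-positive, a share of 73.1% (exact binomial interval 71.95 to 74.27%). In SHF AngII the share was 58.9% (57.4 to 60.4%, 2576 of 4373 cells), and in SHF baseline 15.9% (14.4 to 17.6%, 333 of 2090 cells). These intervals cover the counting of cells in 1 library each, and the share follows from the rule. After every cell was thinned to 5000 UMIs, so that depth was equal, the shares were 63.1% (61.8 to 64.4%) in CNC AngII and 49.8% (48.3 to 51.4%) in SHF AngII, and 27 and 10 members were too shallow to enter. Cells outside the gate also held Igfbp2 UMIs: among the 1187 macrophage-gated cells of CNC AngII (at least 1 Ptprc UMI, at least 5 of C1qa and Lyz2 together, 0 of Myh11, median 11470 UMIs), 12.6% had at least 1 Igfbp2 UMI but 1.18% had the 2 that membership needs. In the fibroblast gate (at least 1 Pdgfra and 0 Myh11 UMIs), 16.3% of CNC and 8.91% of SHF cells had at least 1 Igfbp2 UMI and 7.43% and 2.91% at least 2. Spp1 (osteopontin) reached 5 UMIs in 507 smooth muscle cells of CNC AngII, 150 of SHF AngII and 0 of SHF baseline, and these cells are not members.

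Among members, the Igfbp2 level itself was widely spread. The median member had 18 Igfbp2 UMIs, with quartiles of 7 and 40 and a highest value of 398, and 68.7% had at least 10. The SHF AngII cells in the same gate had a median of 18 UMIs, quartiles of 6 and 44 and a highest value of 596. The summed level was 1990 CPM in CNC and 2057 CPM in SHF, so the gate gave classes of like Igfbp2 level, whereas the 333 baseline cells stood at 1351 CPM with a median of 6 UMIs. At the edge of the rule, the 275 members with exactly 2 Igfbp2 UMIs had Eln at 4147 CPM and Acta2 at 36095 CPM, and the 472 cells just outside with 1 UMI had 4544 and 36255 CPM.

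Members held 63707634 UMIs, with a median of 13767.5 per cell, and the SHF cells 42079755 UMIs, with a median of 14805.5. Median mitochondrial shares were 5.17% and 5.38%. The libraries shared 32 barcodes, 1 of them among members. Scrublet marked 59 members (1.42%) and 31 SHF cells (1.203%) as doublets, and they were kept in the values here. Macrophage RNA differed between the libraries: the 9 macrophage markers summed to 173 CPM in members and 2.47 CPM in the SHF cells, with Ptprc at 0 in both by the gate and Adgre1 at 0 in SHF. Lyz2, the most abundant of them, had a UMI in 27.6% of members and 0.233% of SHF cells, and 25 members with at least 10 UMIs held 64.5% of its UMIs. The 7 fibroblast markers summed to 1247 and 1371 CPM, but most of each sum was Col1a1, whose level was alike in both. Of the 4 fibroblast markers compared, 0 were called higher and 2 lower in members. These were Dcn, at 25.5 and 110 CPM, and Lum, at 8.35 and 34.6 CPM, so this RNA also differed between the libraries. The 7 endothelial markers summed to 0.801 and 0.856 CPM. Pdgfra and Pecam1 were at 0 by the gate.

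Origin separated few genes within the Igfbp2-positive class. Of 4690 genes with a mean of at least 20 CPM, 24 (0.512%) were at least 1.5-fold higher in CNC AngII than in SHF AngII and 25 (0.533%) at least 1.5-fold lower. The median absolute log2 ratio was 0.08, and 87.7% of the genes lay within 0.2 of 0. Log2 ratios have 1 CPM added on both sides and the intervals have none, so a ratio of a low gene can lie outside its interval. In the plot of levels by gene, Tnnt2 and Des show the widest gaps.

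**Figure D1:**
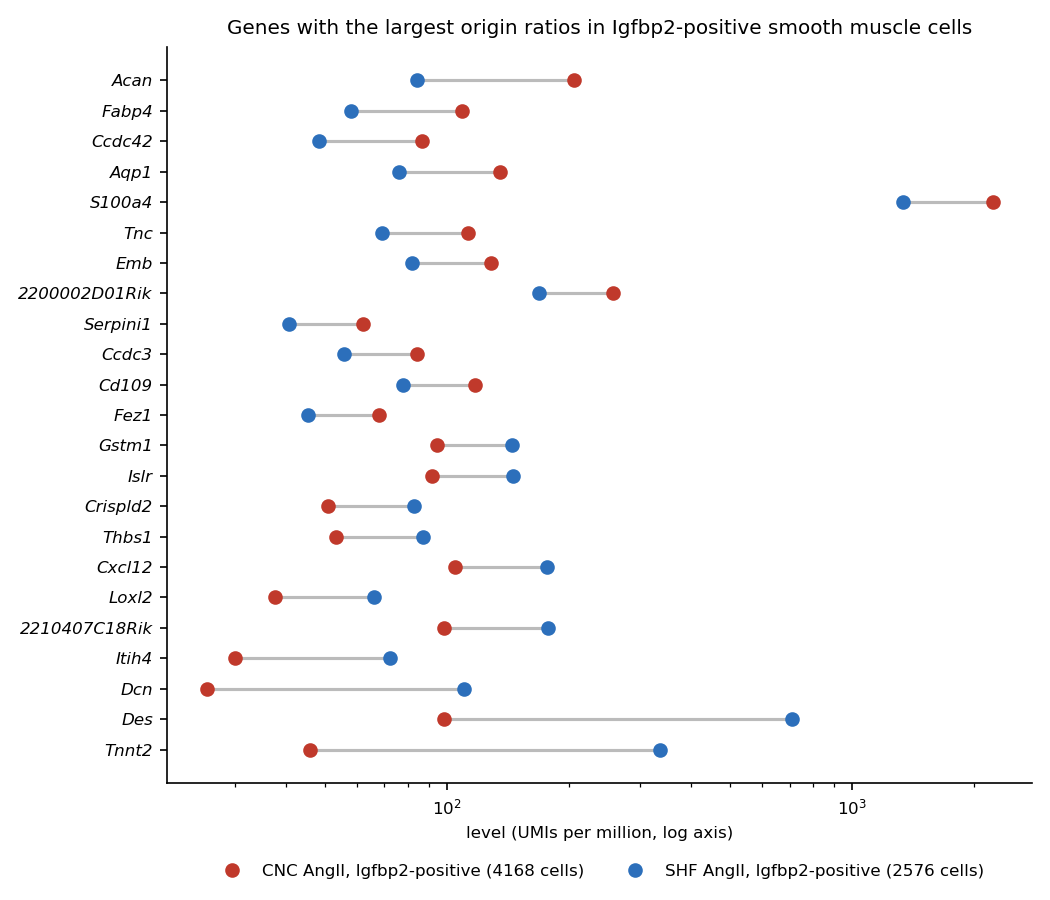
Levels in CPM (log axis) of genes from among the 12 with the highest and the 12 with the lowest CNC over SHF ratio in Igfbp2-positive smooth muscle cells, 1 library per point. Acan, at 206 against 84.5 CPM, leads the genes higher in CNC, and Tnnt2, at 45.9 against 335 CPM, those lower.

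Tnnt2 and Des, of the striated muscle list, had the lowest ratios of all genes compared. Tnnt2 stood at 45.9 CPM in members and 335 CPM in SHF cells, 7.16-fold lower in CNC (log2 ratio -2.84, interval -2.93 to -2.81). Des stood at 98.5 and 709 CPM, 7.14-fold lower (-2.84, -2.89 to -2.81). No other compared gene of the striated muscle list passed 1.5-fold: 10 of its 35 genes were compared, 0 were called higher and 2 lower, with a median of -0.07 beside 0.00 over all 4690 genes. Myoz2, a Z-disc protein, was at 66.3 and 90.7 CPM (-0.45), Myom1 (myomesin) at 179 and 194 CPM (-0.11), Ldb3 at 85.3 and 81.2 CPM (0.07), Myl4, an atrial myosin light chain, at 41.4 and 35.3 CPM (0.22), and Xirp1 at 83.5 and 68.0 CPM (0.29). Among the 10 compared genes the calls were thus these 2, and the rest of the list was too low to be compared.

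Most members had neither gene. Des had 0 UMIs in 81.2% of members (3383 cells) and at least 10 in 5.66% (4.98 to 6.41%, 236 cells), and those 236 cells held 75.8% of its UMIs. In SHF AngII 49.8% of cells had 0 Des UMIs and 32.4% (30.6 to 34.3%, 835 cells) at least 10. A member with 10 or more had a median of 16 Des UMIs and such an SHF cell 26, so both the share of cells and the level in them were lower in CNC. Tnnt2 had a UMI in 20.9% of members and 54.2% of SHF cells, and at least 10 UMIs in 1.39% (58 cells) and 15.2% (391 cells). At 5000 UMIs per cell, Des was detected in 12.9% of CNC and 43.0% of SHF cells, and Tnnt2 in 12.6% and 38.6%. In the CNC macrophage gate, which should lack both, 0.590% had a Des UMI and 1.10% a Tnnt2 UMI. Fibroblast-gated cells had a Des UMI in 2.66% of CNC and 8.04% of SHF cells, and a Tnnt2 UMI in 8.42% and 19.3%, at median depths of 11984 and 15163 UMIs.

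**Figure D2:**
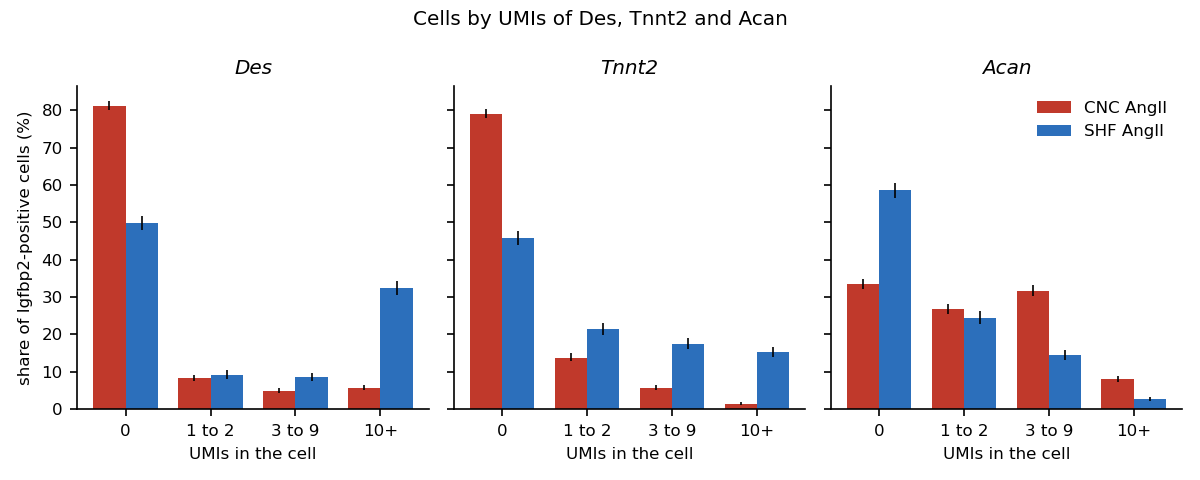
Share of Igfbp2-positive cells (%) by the number of Des, Tnnt2 or Acan UMIs in the cell, in CNC AngII (4168 cells) and SHF AngII (2576 cells); black bars are exact 95% binomial intervals. Cells with 10 or more Des UMIs were 5.66% of the CNC and 32.4% of the SHF class, and Acan runs the other way.

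The Des and Tnnt2 cells overlapped only in part. Among members, 4 cells had at least 10 UMIs of both genes, and 64.4% (2684 cells) had neither a Des nor a Tnnt2 UMI. Those 4 were 1.69% of members with 10 or more Des UMIs. At least 10 Tnnt2 UMIs were found in 1.36% of members with no Des UMI and 1.39% of all members, a like share. In SHF AngII 163 cells had at least 10 of both and 26.3% had neither. There the shares with at least 10 Tnnt2 UMIs were 19.5% with 10 or more Des UMIs, 10.7% with none and 15.2% of all the cells. Tnnt2 was detected in 59 of the 236 members with 10 or more Des UMIs (interval of the share 19.6 to 31.0%) and in 20.7% (19.3 to 22.1%) of members with none. In SHF the shares were 61.6% (58.2 to 64.9%) and 47.2% (44.4 to 49.97%). Whether the association of the 2 genes differs between the libraries was not tested.

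The 236 Des-high members differed from the 3383 members with no Des UMI in a few other genes, described here by ratio only because the split was made after the values of Des were seen. Actg2, the enteric smooth muscle actin, was at 697 CPM in Des-high and 435 CPM in Des-negative members (log2 ratio 0.68, 0.62 to 0.74). Mgp, matrix Gla protein, an inhibitor of calcification, was at 3849 and 6671 CPM (-0.79, -0.82 to -0.77). Fabp4, a fatty acid binding protein, was at 62.0 and 114 CPM (-0.87), and the water channel gene Aqp1 at 98.5 and 137 CPM (-0.47). A single Des-negative member held 1111 Fabp4 UMIs, which lowers the Fabp4 ratio. The size of that effect was not tested, so the Fabp4 ratios of CNC and SHF cannot be set beside each other. In SHF cells the same split gave 0.81 for Actg2, -0.82 for Mgp, -0.80 for Fabp4 and -0.43 for Aqp1. Apoe differed in sign, at -0.94 (-1.16 to -0.74) in CNC and 0.23 in SHF. However, 44 members with at least 10 Apoe UMIs held 45.4% of its UMIs in members, 288 of them in 1 cell. The part of these cells in the ratio was not tested.

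Acan had the highest ratio of the genes named by rank. It was at 206 CPM in members and 84.5 CPM in SHF cells, 2.42-fold higher (log2 ratio 1.28, interval 1.23 to 1.34). A UMI of Acan was found in 66.6% of members (65.1 to 68.0%) and 41.5% of SHF cells (39.5 to 43.4%), and at 5000 UMIs per cell in 47.9% and 24.8%. Of the macrophage-gated CNC cells 1.77% had an Acan UMI. Tnc (tenascin C, a glycoprotein of remodelling matrix) was at 113 and 69.2 CPM (0.70, 0.64 to 0.77), with a UMI in 63.7% and 45.7% of cells. The ratio of Tnc was short of 1.5-fold with a mitochondrial limit of 5% (0.53), and without the cells that held a UMI of the fibroblast and macrophage genes Dcn, Lum, Dpt, Lyz2 or C1q (0.46).

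Of the proteoglycan and matricellular list, 29 of 40 genes were compared, of which 2 were higher (Acan, Tnc) and 3 lower (Dcn, Lum, Thbs1), with a median of -0.04. Fn1 (fibronectin) was at 1088 and 854 CPM (0.35) and Ccn5 at 120 and 90.8 CPM (0.39), both short of the call, and Vcan (versican, a proteoglycan related to aggrecan) at 60.0 and 52.7 CPM (0.18). Thbs1 (thrombospondin 1, an activator of latent TGF-beta) was lower, at 53.1 and 87.4 CPM (-0.71, -0.79 to -0.65). Dcn (decorin) was at 25.5 and 110 CPM (-2.07), and Lum (lumican) at 8.35 and 34.6 CPM (-1.93). Both are abundant in fibroblasts, and Dcn stood at 4863 CPM in the fibroblast gate of CNC (713 cells) and 5870 CPM in that of SHF (2301 cells). Only 30 members and 79 SHF cells had at least 10 Dcn UMIs, and they held 71.2% and 71.1% of its UMIs. The part of fibroblast RNA or doublets in these ratios was not tested.

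Elastic fibre genes were close between origins. Of 22 genes 16 were compared, 0 were called higher and 1 lower, with a median of -0.01. Eln, elastin, was at 5746 and 4780 CPM (0.27), Fbn1 (fibrillin 1) at 229 and 187 CPM (0.29) and Lox (lysyl oxidase) at 416 and 403 CPM (0.05). Mfap4 and Fbln5, which help assemble the fibre, were at 891 and 1242 CPM (-0.48) and 477 and 656 CPM (-0.46). The called gene was Loxl2, a lysyl oxidase that crosslinks collagen IV, at 37.6 and 66.0 CPM (-0.79, -0.89 to -0.73), whereas its relative Loxl3 stood at 39.4 and 28.5 CPM (0.45).

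The basement membrane list had no called gene among 19 compared of 27. Of the 19 ratios 15 were above 0, with a median of 0.12 beside 0.00 over all 4690 genes. In the Igfbp2-negative cells 16 of 19 were above 0, with a median of 0.17, so this was not particular to members. Npnt had the highest ratio in Igfbp2-positive cells, at 900 and 666 CPM (0.43, 0.41 to 0.46). Agrn (agrin) followed at 27.6 and 21.9 CPM (0.32), then Dag1 (dystroglycan, a laminin receptor) at 168 and 139 CPM (0.27) and Hspg2 (perlecan) at 472 and 397 CPM (0.25), while Col18a1 stood lower in the order at 1635 and 1444 CPM (0.18). The collagen IV chains were not uniform: Col4a1 was at 525 and 541 CPM (-0.04) and Col4a6 at 34.2 and 51.1 CPM (-0.56). Of the collagen list 15 of 25 genes were compared, with 0 higher, 1 lower and a median of 0.00. Col1a1 was at 1157 CPM in both libraries, Col3a1 at 1247 and 1467 CPM (-0.23), and Col14a1, the called gene, at 16.3 and 41.3 CPM (-1.29).

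The contractile list, 28 genes all of which were compared, had 0 calls in either direction and a median of -0.08. Acta2, smooth muscle actin, was at 35611 CPM in members and 37914 CPM in SHF cells (-0.09), Tagln at 19828 and 23951 CPM (-0.27), and Cnn1 (calponin) at 1886 and 2090 CPM (-0.15). Mylk, the kinase that starts contraction, was at 704 and 614 CPM (0.20) and Myocd (myocardin), the coactivator of the programme, at 69.3 and 65.2 CPM (0.09). The lowest ratios were those of Actg2, at 462 and 608 CPM (-0.39), and Synpo2, at 188 and 246 CPM (-0.39).

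**Figure D3:**
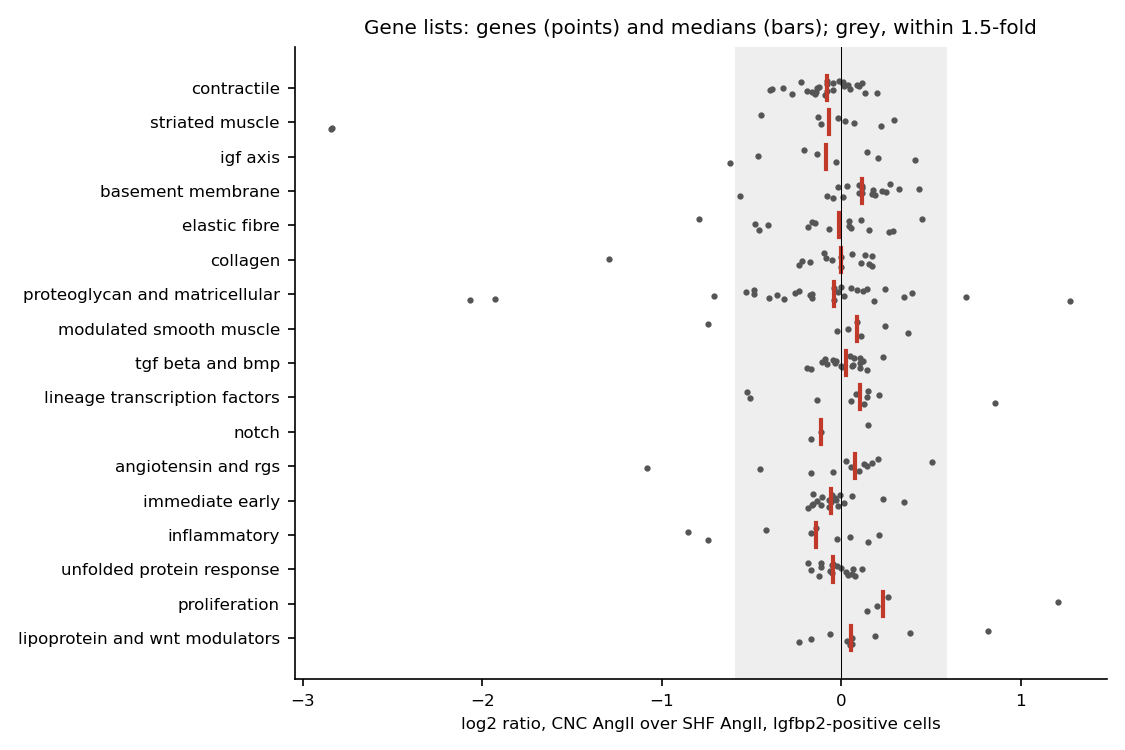
Log2 ratios of CNC AngII over SHF AngII in Igfbp2-positive cells for the compared genes of each list (points, spread vertically only to separate them) and the list medians (red bars); the grey band is within 1.5-fold. Most points lie in the band, and the contractile list has a median of -0.08.

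In the IGF axis, which holds the partners of the protein that defines the class, 8 of 20 genes were compared, with 0 higher and 1 lower and a median of -0.08. Igf1, a ligand, was at 15.7 CPM in members and 24.6 CPM in SHF cells (-0.62, -0.78 to -0.53), and was short of the call with 10 CPM added (-0.43), without Scrublet doublets (-0.47), with no Spp1 limit (-0.57) and with Myh11 of at least 10 (-0.58). Igf1r, the signalling receptor, was at 93.6 and 95.7 CPM (-0.03), and Igf2r, which clears IGF2, at 49.2 and 36.7 CPM (0.41). Among the other binding proteins, Igfbp7 was at 8397 and 9214 CPM (-0.13) and Igfbp4 at 164 and 226 CPM (-0.46). Igfbp3 and Igfbp5 were near 0, at 0.0314 and 2.10 CPM in members. Ptprz1 was at 132 and 153 CPM (-0.21).

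Of 36 lineage transcription factors 10 were compared, with 1 higher and 0 lower, and a median of 0.11. The called gene was Tbx20, a T-box factor of heart development, at 40.4 CPM in members and 21.8 CPM in SHF cells (0.86, 0.78 to 0.999), with a UMI in 37.2% and 24.4% of cells and, at 5000 UMIs per cell, in 17.4% and 10.5%. Meis2 was at 36.9 and 52.8 CPM (-0.51) and Twist1 at 29.0 and 42.2 CPM (-0.53). Gata6 was at 80.2 and 88.3 CPM (-0.14), Hand2 at 88.3 and 85.1 CPM (0.05) and Mef2c at 113 and 103 CPM (0.13). The RNA Hand2os1, transcribed beside Hand2 and chosen after its values were seen, was at 9.53 and 36.8 CPM (-1.84, -2.09 to -1.81).

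The angiotensin and RGS list had 12 of 25 genes compared, 0 higher and 1 lower, with a median of 0.08. Rgs5, which quenches signalling of the angiotensin receptor and other G protein coupled receptors, was at 26.0 CPM in members and 56.3 CPM in SHF cells (-1.08, -1.21 to -1.02), and its relative Rgs4 at 69.5 and 95.7 CPM (-0.45). Npr1, the receptor of the relaxing natriuretic peptides, was at 64.5 and 45.1 CPM (0.51). Agtr1a, the angiotensin receptor gene, was near the limit of detection, with a UMI in 2.06% of members and 2.37% of SHF cells. Abcc9, a potassium channel subunit of vascular smooth muscle named after its value was seen, was higher, at 31.9 and 16.6 CPM (0.90). The TGF-beta and BMP list had 20 of 33 genes compared with 0 calls and a median of 0.03, and Tgfb2 was at 180 and 202 CPM (-0.17). The modulated smooth muscle list (7 of 20 compared) and the inflammatory list (9 of 26) had 0 higher calls and 1 and 2 lower ones, with medians of 0.09 and -0.14, and the Notch list (3 of 16) had none. The immediate early list (20 of 23 compared) and the unfolded protein response list (17 of 18 compared) had 0 calls as well, with medians of -0.05 for each.

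Among the remaining named genes, S100a4, a calcium-binding protein of motile cells, was the most abundant, at 2220 CPM in members and 1333 CPM in SHF cells (0.74, 0.72 to 0.75). Aqp1 was at 135 and 76.2 CPM (0.82), Ccdc42 at 86.9 and 48.2 CPM (0.84), and Emb, an adhesion molecule, at 129 and 82.1 CPM (0.64), which was short of the call at 5000 UMIs per cell (0.55) and as a mean of per-cell shares (0.58). Fabp4 was at 109 and 58.0 CPM (0.90), but 1 member alone held 1111 of its UMIs, 16.01% of the total, and without the highest cell of each library the ratio was 0.68. Lower in members were Itih4, at 29.9 and 72.2 CPM (-1.24), and Cxcl12, a chemokine, at 105 and 176 CPM (-0.74).

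Among other genes called higher, all under a mean of 50 CPM and named after their values were seen, were Smoc2, a matricellular protein, at 52.6 and 29.2 CPM (0.83), Bdh1, Hacd4, Atp1b1, Coq8a, Cks2, Alcam and Tes. Among those called lower, Serpinf1 (pigment epithelium-derived factor) was at 13.2 and 53.5 CPM (-1.94), Tmem176b at 10.5 and 46.9 CPM (-2.06) and Pcolce, an enhancer of procollagen processing, at 27.2 and 55.4 CPM (-1.003). Serpinf1 and Pcolce are abundant in fibroblasts as well.

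Lyz2 had the highest ratio of all called genes, at 59.2 and 0.190 CPM, and belongs to the macrophage markers given above. Ifi27l2a, an interferon-response gene, was at 49.6 and 14.7 CPM, a log2 ratio of 1.69, which was 0.43 without cells with more than 1 UMI of macrophage, endothelial or mesothelial markers. Genes of division were few and low. Of the proliferation list 4 genes were compared, and Stmn1 (stathmin, a microtubule regulator) was called higher, at 43.6 CPM in members and 18.3 CPM in SHF cells (1.21, 1.14 to 1.37). Mki67, below the level for a call, had a UMI in 2.64% of members (2.17 to 3.17%) and 1.01% of SHF cells (0.660 to 1.48%), and at 5000 UMIs per cell in 1.76% and 0.312%. Top2a was found in 3.38% (2.85 to 3.98%) and 1.67% (1.21 to 2.24%).

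The 333 Igfbp2-positive cells of SHF baseline give the level of these genes before AngII in the other origin, from a file with another gene list. Acan was at 22.5 CPM there, Tnc at 10.6 CPM and S100a4 at 540 CPM, so that the AngII cells of both origins lay above it for each. Tnnt2 was at 564 CPM and Des at 547 CPM, and members lay below it for both. Dcn, at 391.6 CPM, was also higher at baseline than in either AngII class. Changes with time or treatment in SHF and the gap between origins share the SHF AngII library and were not set against each other.

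More genes passed the 1.5-fold limit of origin in the Igfbp2-negative cells of the same libraries. There 47 of 4783 genes (0.983%) were at least 1.5-fold higher in CNC and 66 (1.38%) lower, and 80.3% of genes lay within 0.2 of 0. The negative classes held fewer UMIs than the positive ones, 17997096 in CNC and 22097452 in SHF. Dcn, abundant in fibroblasts, was at 43.1 and 330 CPM in them, and 1 CNC cell held 693 of the 717 UMIs of Espn, a gene called higher (3.75). The part of depth, fibroblast RNA and single cells in these counts was not tested. Of the genes called in the positive class, 18 of the 24 higher (75%, and 38.3% of the 47) and 24 of the 25 lower (96.0%, and 36.4% of the 66) were called the same way in the negative class, which comes from the same 2 libraries. Acan, Tnc, Tnnt2 and Des kept their direction, at log2 ratios of 1.64, 1.13, -3.20 and -2.82. Apoe, apolipoprotein E, was at 93.6 CPM in members and 91.4 CPM in SHF Igfbp2-positive cells (0.03), but at 157 and 313 CPM in the negative cells (-0.99). Tcap, the titin cap, was at 65.2 and 60.9 CPM in positive cells (0.10) and 125 and 201 CPM in negative cells (-0.69). For both genes the difference between the ratios exceeded counting error. Whether positive and negative cells differ in this way between mice was not tested. Of the Apoe UMIs, cells with at least 10 of them held 45.4% in members and 55.0% in CNC negative cells. In SHF these shares were 29.3% in positive and 62.7% in negative cells. The single highest cell held 288 Apoe UMIs among members and 172 among CNC negative cells. Counting error does not cover such cells, and their part in the Apoe ratios was not tested.

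**Figure D4:**
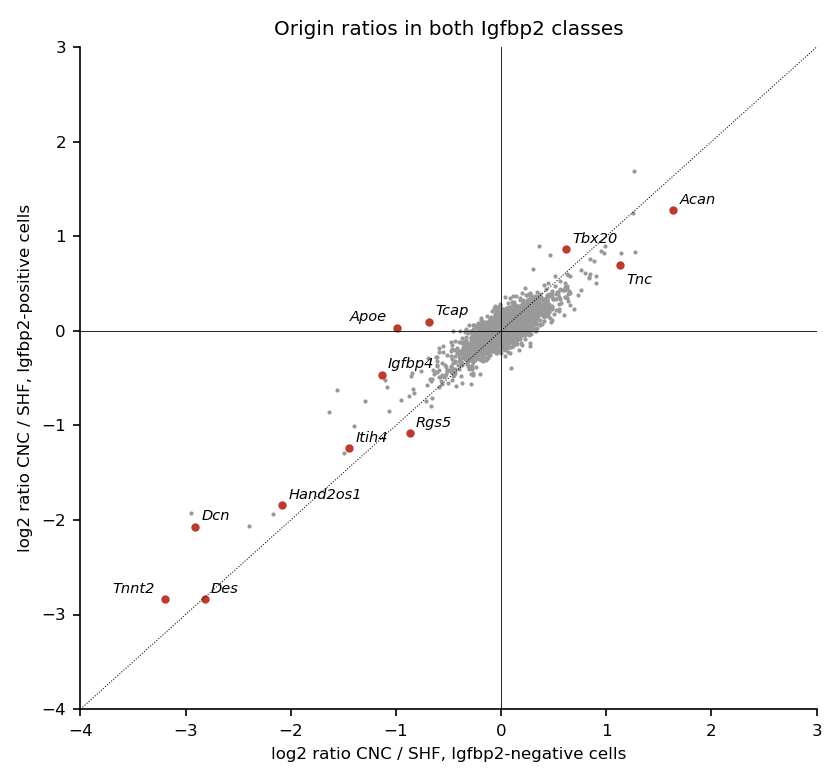
Log2 ratio of CNC AngII over SHF AngII for 4615 genes in Igfbp2-positive cells (vertical) and Igfbp2-negative cells (horizontal), with equality as the dotted line; 1 gene lies outside the axes. Tnnt2 and Des lie low and Acan high in both classes, whereas Apoe and Tcap lie near 0 on the vertical axis.

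Within CNC AngII, members were compared with the 1532 Igfbp2-negative cells; the rule sorted these cells on Igfbp2, so the ratios describe what goes with that gene. Of 4718 genes, 5 (0.106%) were at least 1.5-fold higher in members and 14 (0.297%) lower, and 92.0% were within 0.2 of 0. The 5 higher genes were Stmn1, at 43.6 CPM in members and 22.4 CPM in negative cells (0.93), Ccn5, Cldn3 (claudin 3) at 61.2 and 38.1 CPM (0.67), Lrrc32, which holds latent TGF-beta at the cell surface, at 32.8 and 21.0 CPM (0.62), and Ankrd1. Stmn1, Cldn3 and Lrrc32 were named after their values were seen. Ccn5, a matricellular protein that restrains smooth muscle growth, was at 120 CPM in members and 70.6 CPM in negative cells (log2 ratio 0.75, 0.67 to 0.85). Short of the call, Tnc was at 113 and 76.5 CPM (0.55), Eln at 5746 and 4003 CPM (0.52), Fbln2 (fibulin 2) at 100.1 and 72.01 CPM (0.47) and Fn1 at 1088 and 811 CPM (0.42). Ankrd1, a stretch-induced muscle gene, was at 83.1 and 54.1 CPM (0.61), and was no longer called with 10 CPM added (0.54) or without cells with a UMI of Dcn, Lum, Dpt, Lyz2 or C1q (0.46). In SHF the same split gave 0.55 for Ccn5, 0.99 for Tnc, 0.64 for Eln, 0.51 for Fbln2, 0.70 for Fn1 and 0.86 for Ankrd1.

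Of the lists given here, the elastic fibre, collagen and immediate early lists stood apart by small amounts in this comparison. Of 16 compared elastic fibre genes 14 had a ratio above 0, with a median of 0.20 and 0 calls, beside a median of -0.01 over all genes. Of 27 compared proteoglycan and matricellular genes 11 were above and 16 below 0, with a median of -0.06. Of 15 compared collagen genes 14 were above 0, with a median of 0.14. Col5a2 was at 506 and 402 CPM (0.33), Serpinh1, the collagen chaperone, at 894 and 715 CPM (0.32) and Col1a1 at 1157 and 948 CPM (0.29). The contractile list had a median of -0.04 with 0 calls, and Acta2 was at 35611 and 35132 CPM (0.02). Of 20 compared immediate early genes 17 were below 0, with a median of -0.20: Btg2 was at 489 and 635 CPM (-0.38) and Jun at 580 and 720 CPM (-0.31). Dissociation of tissue is known to raise such genes, and its part was not tested.

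Lower in members than in negative cells were Tcap, at 65.2 and 125 CPM (-0.93, -1.01 to -0.86), Tnnt2, at 45.9 and 82.3 CPM (-0.83), Gstm1, a glutathione transferase, at 94.3 and 168 CPM (-0.83), and Apoe, at 93.6 and 157 CPM (-0.74). In SHF the ratios were -1.71 for Tcap, -1.19 for Tnnt2, -1.05 for Gstm1 and -1.77 for Apoe. Tnnt2 was detected in 20.95% of both members and negative cells, and 30 negative cells with at least 10 UMIs held 49.6% of its UMIs in that class, 210 of them in 1 cell. Without cells with a UMI of Dcn, Lum, Dpt, Lyz2 or C1q the Tnnt2 ratio was -0.20. The ratio of Apoe ended short of the call under 5 settings, the lowest in size being -0.36 at 5000 UMIs per cell. Espn (espin) had the lowest ratio of all, at 1.44 and 39.8 CPM (-4.06), but 1 negative cell held 693 of its 717 UMIs, and without the highest cell of each class the ratio was 0.05. Igfbp4, another IGF-binding protein, was at 164 and 111 CPM in CNC (0.55) but at 226 and 245 CPM in SHF (-0.12).

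Several of these genes also differed along the Igfbp2 level, not all of them evenly. From CNC cells with 0 Igfbp2 UMIs to those with 40 or more, Eln went from 3747 to 6848 CPM, Fn1 from 760 to 1159 CPM, Tnc from 74.5 to 135 CPM and Ccn5 from 59.3 to 152 CPM. Over the same classes Tcap went from 132 to 43.5 CPM and Tnnt2 from 86.1 to 31.9 CPM. Tnnt2 stood at 74.4 CPM in cells with 1 Igfbp2 UMI, 47.6 CPM with 2 to 4 and 52.1 CPM with 20 to 39, so that its fall was uneven. Ccn5 stood at 94.6 CPM with 1 Igfbp2 UMI and 78.5 CPM with 2 to 4. Acta2 stood at 34603 and 34867 CPM at these ends. In SHF Eln went from 2944 to 5529 CPM and Tnnt2 from 843 to 217 CPM. Median depth was also higher along these classes, at 10210.5 UMIs in the first and 16198 in the last in CNC. With every cell at 5000 UMIs, Eln still ran from 3462 CPM in CNC cells with 0 Igfbp2 UMIs to 5408 CPM in those with 10 or more, Ccn5 from 72.7 to 153 CPM and Tcap from 152 to 60.3 CPM. Thinned Tnnt2 fell gradually, with no single step at the threshold. It was at 104, 83.9, 63.1, 58.9 and 55.7 CPM with 0, 1, 2 to 4, 5 to 9 and 10 or more Igfbp2 UMIs. Thinned Fn1 was at 770 CPM with 0 and 946 CPM with 1 Igfbp2 UMI, and at 1035, 1036 and 1031 CPM in the 3 classes from 2 up, with no gradient among them. Acan did not follow: it was at 208, 244 and 178 CPM in thinned cells with 0, with 2 to 4 and with 10 or more Igfbp2 UMIs.

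**Figure D5:**
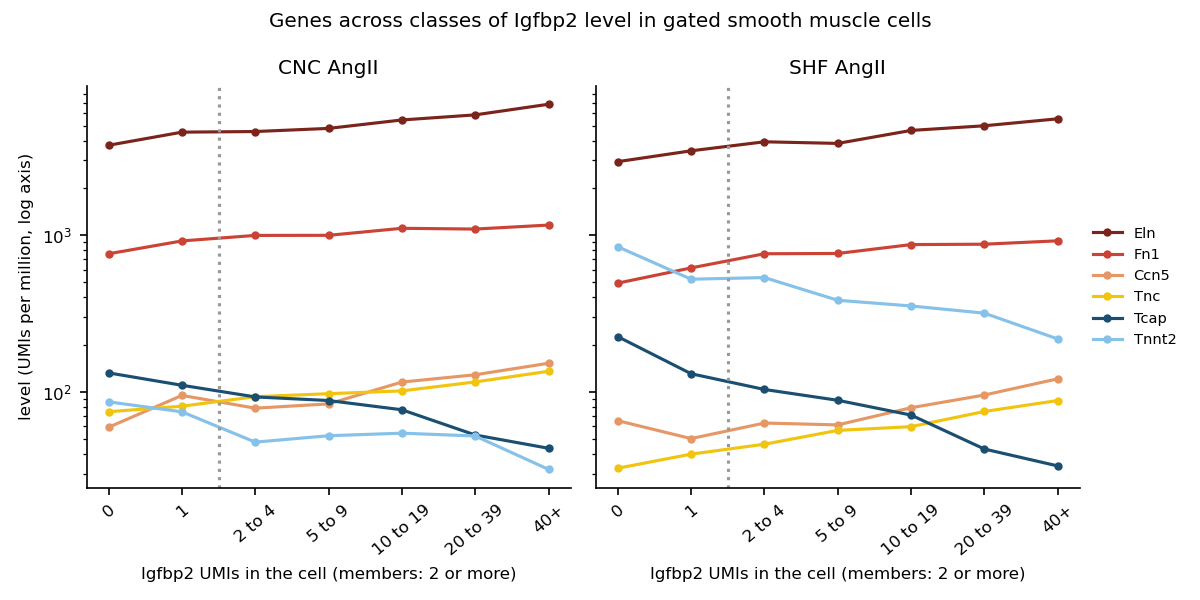
Levels in CPM (log axis) of 6 genes in gated smooth muscle cells sorted by their Igfbp2 UMIs, in CNC AngII and SHF AngII; cells right of the dotted line are Igfbp2-positive. Eln, Fn1, Tnc and Ccn5 are higher in the last class than in the first, and Tcap and Tnnt2 lower, in both libraries.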

How the data were processed

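Droplet 3' single-cell libraries of sorted cells of the ascending aorta were deposited by the authors as raw UMI counts per gene and barcode, with no normalization. The submitters' processing notes name fastp, STAR 2.5, HTSeq 0.6.1 and the build mm10, with no role given; the cell caller and gene annotation are not given in the sources used here. Both AngII files list 32285 genes and the SHF baseline file 18760, some under older names. The members and gene lists were chosen with earlier results of these data known.

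Summed UMIs of each class were divided by the class total (CPM) and compared as log2((CPM + 1)/(CPM + 1)). A gene was called at 1.5-fold or more, among genes with a mean of at least 20 CPM, without the 6 gate genes. Ratio intervals are exact conditional binomial and share intervals Clopper-Pearson, both 95%; they cover counting error only. Genes are named by rank (12 each way by origin, 10 each way by Igfbp2 class, mean of at least 50 CPM, a UMI in at least 10% of cells, without mitochondrial, ribosomal protein and gate genes), and genes of the lists may also be named; some are not reported here. A gate of Myh11 and marker genes is a range and not a cell type called by clustering. Cells were thinned without replacement to 5000 UMIs (seed 1). Doublets were marked with Scrublet in scanpy 1.11.5. The functions were tested on simulated data. Alternatives included TMM factors from edgeR 4.0.16 on the summed counts, other thresholds and other sets of cells; the negative cells, SHF AngII and SHF baseline served only for comparison.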

Additional observations from a re-analysis of the deposited data

How the results depend on the processing

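No paired analysis was possible because each group has 1 library. Counts of called genes depended most on the CPM minimum: at 50 CPM 25 genes were called by origin (10 higher, 15 lower) and 9 by Igfbp2 class, and at 5 CPM 162 (78 higher, 84 lower) and 54, since fewer or more genes were compared. The 19 calls by Igfbp2 class became 10 with 10 CPM added, 10 at 5000 UMIs per cell and 11 with no Spp1 limit. Without cells with a UMI of Dcn, Lum, Dpt, Lyz2 or C1q, an alternative chosen after seeing the data, 32 genes were called by origin, 12 of them lower, and 11 of those 12 were among the 25; the ratio of Dcn and Lum is 0 there by construction. The Igfbp2-positive shares of CNC and SHF AngII were 63.1% and 49.8% at 5000 UMIs, 81.4% and 68.1% with Igfbp2 of at least 1, 61.3% and 48.1% with at least 5, 74.4% and 61.3% with Myh11 of at least 10, 77.3% and 61.1% at 5% mitochondrial UMIs, and 71.4% and 61.4% without cells with a UMI of those fibroblast and macrophage genes; the cause of these shifts was not tested. Of 1153 alternative ratios over 69 gene results, 817 stayed in the counting interval, 336 moved out of it and 0 of the called ones changed sign. The origin ratios of Acan, Tnnt2 and Des stayed past 1.5-fold under all 17 alternatives. TMM moved the median ratio of all genes to -0.01 by origin. Depth limits genes such as Agtr1a and Mki67.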
